A study of Mus musculus with 34 samples.

Results

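The 36 genes described here encode the machinery that copies DNA and the enzymes that supply its building blocks. They were chosen by name, from general knowledge of replication, with earlier results of these data already known. For each, the array probeset with a single gene symbol was taken, and for the 2 genes with more than one such probeset the one with the higher mean. All 36 were measured, among 19938 genes in all.

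Before a cell can replicate its DNA, the origin recognition complex (Orc1 and Orc6 among its subunits), Cdc6 and Cdt1 load the ring-shaped helicase Mcm2 to Mcm7 onto origins. Cdc45 and the GINS complex (Gins1 to Gins4) join that ring to form the active helicase, with Mcm10 as a further activator. Primase and polymerase alpha lay down primers, the clamp loader (Rfc2 to Rfc5) places the sliding clamp Pcna, and polymerases delta and epsilon extend the strands. Most of these genes are transcribed more strongly in dividing than in resting cells, and many are known targets of E2F factors, so as a set they are widely read as a sign of how many cells in a population are cycling.

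RNA was profiled on 34 microarrays. The cells were 2 lines of pre-B acute lymphoblastic leukaemia, each grown out from 1 mouse carrying a BCR/ABL transgene, which encodes a constantly active form of the ABL kinase. Line 8093 comes from inbred C57Bl/6J mice, whereas Bin-2 is of mixed background. Every culture grew with 10 ng/ml interleukin-3 over irradiated mouse embryonic fibroblasts that stayed in place to the end, and the cells collected were those floating or loosely attached. The ABL kinase inhibitor nilotinib was given without a break to 8093 at 20 nM and to Bin-2 at 50 nM. The farnesyltransferase inhibitor lonafarnib was given in the same way to 8093 at 1 µM and to Bin-2 at 0.25 µM; the sample labels give µM, while the series' design text has mM for the same figures. Each of these 4 courses was sampled before drug (day 0, the start), at a midpoint of low viability and at an end, after viability under drug had come back to about 90%. The midpoint was taken on day 4 at 20% viability for 8093 with lonafarnib, and on day 3 at 5 to 10% viability for the other courses. The end fell on day 20 for 8093 and day 21 for Bin-2 under nilotinib, and on day 26 for 8093 and day 30 for Bin-2 under lonafarnib. A group held 3 arrays from separate plates, or 2 at either end of 8093, and these small numbers limit the precision. A midpoint plate was a larger dish or a pool of dishes. At both 8093 ends the replicate numbers 1 and 2 are those of the sample titles; the array descriptions letter the arrays b and c under nilotinib and a and c under lonafarnib. There was no course without drug, so drug and time in culture cannot be told apart.

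Values are log2 signals as deposited. Changes are differences of group means on that scale, where 1 is 2-fold, and the number after ± is their standard error in a linear model over all 34 arrays. A gene was called when its adjusted p (limma, Benjamini-Hochberg over 19938 genes) was below 0.05. At the starts, the mean log2 signal of 15 pre-B markers lay between 8.31 and 8.78 in the 12 arrays of both lines. Both 8093 arrays from the nilotinib end stood apart from their label. Their pre-B marker mean was 5.83 and 5.87, 13 of the 15 markers were called lower than at the start and 1 higher, and the mean of 14 mast cell markers had gone from 4.44 to 4.67 at the start to 11.02 and 11.07. Array values were also compressed at 2 midpoints. The interquartile range over all probesets was 2.94 to 3.13 in 8093 with nilotinib and 3.05 to 3.25 in Bin-2 with lonafarnib. Elsewhere it was 3.36 to 3.59. In bulk RNA, fewer cells of a type and less RNA per cell cannot be told apart, nor can RNA of viable and of dying cells.

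The set fell most in 8093 with nilotinib, by about as much at the midpoint as at the end. All 36 genes were called lower than at the start and 0 higher, where 50.1% of all genes were called in either direction and 27.5% lower. Their median change was -1.22, against 0.03 for all genes, and 25 of the 36 fell at least 2-fold. In each of the 36 the 3 midpoint arrays lay below the 3 start arrays. When the arrays were scaled to one median and interquartile range, the median over all genes moved to -0.16 and that of the 36 to -1.15, with 35 still called lower.

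The 3 genes with the largest falls came from different roles. Gins1, a subunit of the GINS complex, read 7.91, 7.95 and 7.75 in the start arrays and 5.84, 5.60 and 5.29 at the midpoint. No array of either time came near the other, and Gins1 fell by 2.29 ± 0.17 (adjusted p = 3.74e-12). Rfc4, a subunit of the clamp loader, read 9.53, 9.45 and 9.47 before drug and 7.44, 7.34 and 7.18 at the midpoint, a fall of about the same size (-2.16 ± 0.13, adjusted p = 9.04e-14). Pole2, the accessory subunit of polymerase epsilon, read 8.04, 7.91 and 8.01 and then 6.30, 5.70 and 6.18. That gene fell by 1.93 ± 0.13 (adjusted p = 4.88e-13), and again its groups were well apart.

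The other roles followed. Of the 6 subunits of the helicase ring all were called lower, from -0.79 (Mcm2) to -1.41 (Mcm5). The 6 helicase activators had a median of -1.64, from -0.89 (Gins2) to -2.29 (Gins1), so their range overlapped that of the ring. A difference between roles was not tested. Among the activators Cdc45, which joins the ring with the GINS complex, fell by 1.89 ± 0.12 and Mcm10 by 1.74 ± 0.10. Among the licensing factors Cdc6, the ATPase that helps load the ring, fell by 1.76 ± 0.11, and Cdt1, its loading partner, by 0.60 ± 0.12. All 8 polymerase and primase subunits were called lower, from -0.60 in Pold1, the catalytic subunit of polymerase delta, to Pole2 above. Fen1 and Lig1, which trim and seal Okazaki fragments, fell by 1.36 and 0.91, and Rpa2, part of the complex that coats single-stranded DNA, by 1.53. The 4 nucleotide supply genes spanned a narrow range, from -1.13 in Rrm1 to -1.43 in Rrm2, the large and small subunits of ribonucleotide reductase, with thymidylate synthase (Tyms) and thymidine kinase (Tk1) between them. Rfc5 had the smallest change of all (-0.40 ± 0.15, adjusted p = 0.0309), and its highest midpoint array (8.0) lay just under its lowest start array (8.02).

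**Figure D1:**
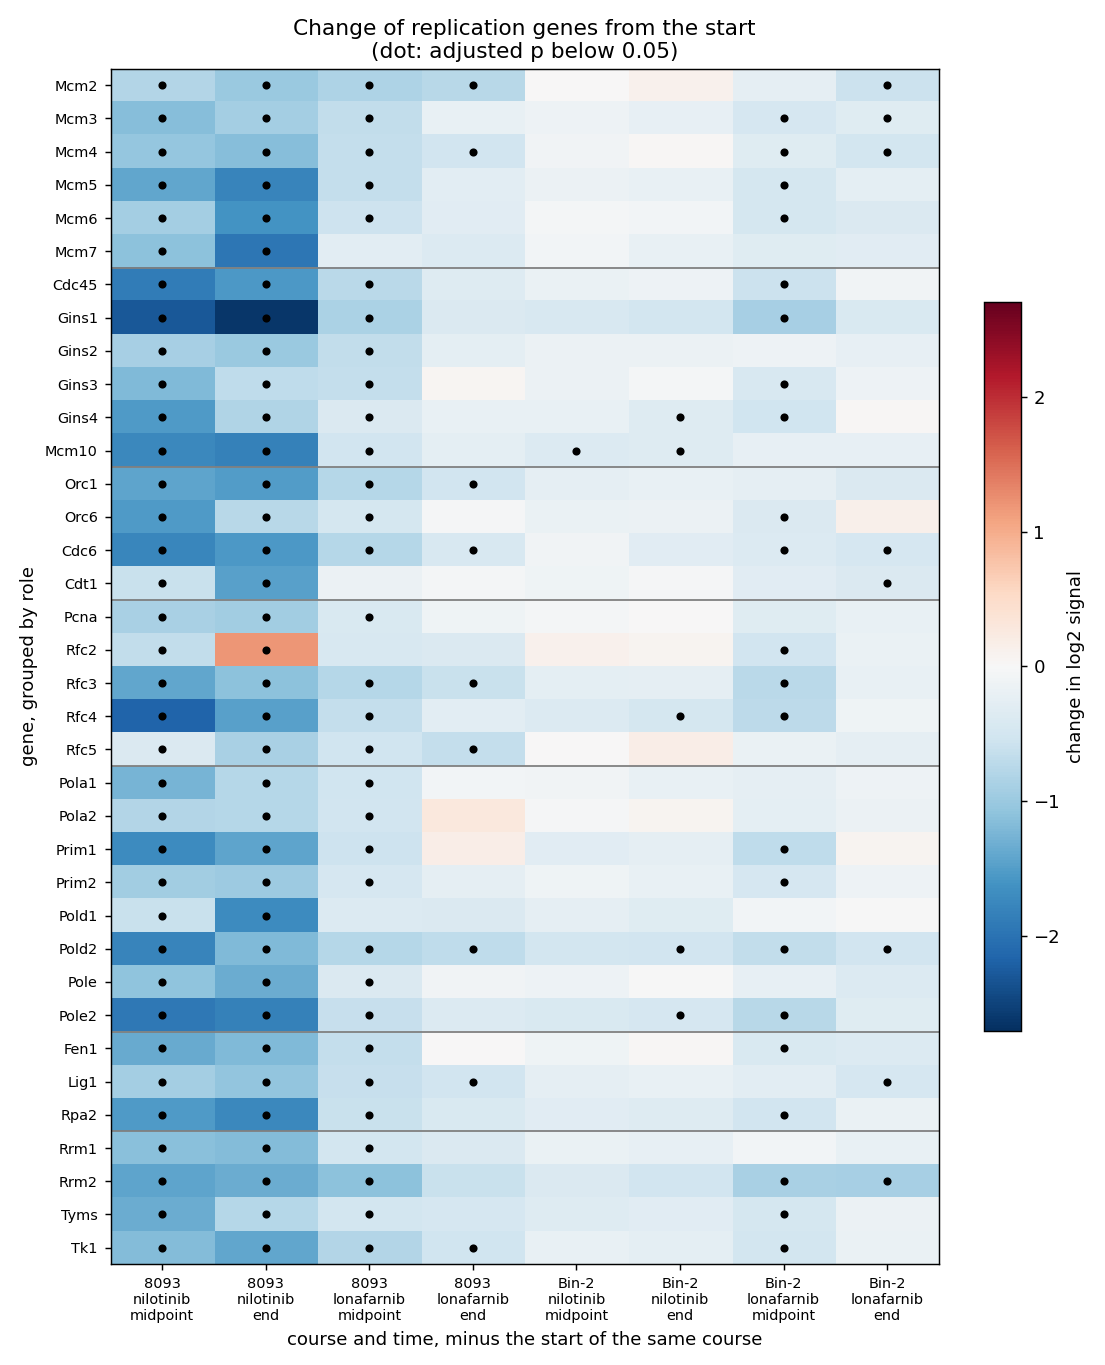
Change in log2 signal of each of the 36 genes (rows, grouped by role) at each midpoint and end against the start of the same course (columns), from blue (lower) to red (higher); a dot marks an adjusted p below 0.05 in limma. The 2 columns of 8093 with nilotinib are blue and dotted throughout except Rfc2 at the end, the one dotted red cell, and the Bin-2 nilotinib columns are pale with 1 and 5 dots.

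Several of these genes share short promoter sequences, shown here because the whole set moved together. RefSeq windows of 250 bases before to 50 after the transcription start (build GRCm38.p6) were held for 29 of the 36 genes, in 34 windows. The letters TTTCCCGC, TTTGGCGC and TTCCCGCC, forms of the E2F site, were searched on both strands; the first and the last can overlap. At least one of them stood in 14 windows, each of a different gene. That is 41.2% of the 34 windows, against 4.47% of the 19177 windows of all genes tested and 3.21% of all 32851. CCAAT, the letters bound by NF-Y, was found in 55.9% of the 34 and 37.4% of those of genes tested, and TTTGAA, the CHR element of late cell cycle genes, in 14.7% and 14.8%. The letters did not sort the genes by response, since the median midpoint change in 8093 with nilotinib was -1.23 in the 14 genes with E2F letters and -1.36 in the 15 without. Below are the windows of the 3 genes with the lowest mean change over the 4 midpoints for which a window was held (for Pold2 the first of its 2 windows along the strand of the gene), of the 1 with the highest (Rfc5), and of Mcm3 and Mcm6, picked after the search for holding the most E2F letters. Capitals mark a match to any of the motifs on either strand, so GGCGGGAA is TTCCCGCC read from the other strand and ATTGG is CCAAT.
Rfc4, chr16:23127681-23127980, minus strand: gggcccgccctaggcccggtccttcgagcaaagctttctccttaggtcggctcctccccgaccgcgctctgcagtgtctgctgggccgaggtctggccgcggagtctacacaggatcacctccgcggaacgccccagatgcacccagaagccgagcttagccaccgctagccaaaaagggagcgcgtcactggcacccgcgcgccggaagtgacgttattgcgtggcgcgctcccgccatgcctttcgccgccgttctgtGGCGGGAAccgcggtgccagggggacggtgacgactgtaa
Rrm2, chr12:24708004-24708303, plus strand: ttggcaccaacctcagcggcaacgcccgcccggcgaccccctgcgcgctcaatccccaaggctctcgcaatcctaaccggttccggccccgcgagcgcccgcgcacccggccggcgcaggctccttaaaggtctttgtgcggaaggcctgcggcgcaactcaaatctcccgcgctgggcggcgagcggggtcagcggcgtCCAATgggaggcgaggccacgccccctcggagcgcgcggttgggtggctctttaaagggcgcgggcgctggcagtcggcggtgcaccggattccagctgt
Pold2, chr11:5878207-5878506, minus strand: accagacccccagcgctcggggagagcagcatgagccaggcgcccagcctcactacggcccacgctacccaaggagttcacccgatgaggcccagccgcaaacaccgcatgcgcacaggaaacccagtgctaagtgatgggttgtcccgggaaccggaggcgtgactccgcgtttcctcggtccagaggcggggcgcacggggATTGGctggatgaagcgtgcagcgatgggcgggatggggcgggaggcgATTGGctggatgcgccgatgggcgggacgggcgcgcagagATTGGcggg
Rfc5, chr5:117388974-117389273, minus strand: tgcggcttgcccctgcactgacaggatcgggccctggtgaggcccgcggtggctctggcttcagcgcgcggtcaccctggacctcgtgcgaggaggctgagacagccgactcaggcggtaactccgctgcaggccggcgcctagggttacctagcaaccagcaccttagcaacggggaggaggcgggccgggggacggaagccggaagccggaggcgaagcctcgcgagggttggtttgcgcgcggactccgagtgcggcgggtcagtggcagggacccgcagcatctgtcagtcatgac
Mcm3, chr1:20820263-20820562, minus strand: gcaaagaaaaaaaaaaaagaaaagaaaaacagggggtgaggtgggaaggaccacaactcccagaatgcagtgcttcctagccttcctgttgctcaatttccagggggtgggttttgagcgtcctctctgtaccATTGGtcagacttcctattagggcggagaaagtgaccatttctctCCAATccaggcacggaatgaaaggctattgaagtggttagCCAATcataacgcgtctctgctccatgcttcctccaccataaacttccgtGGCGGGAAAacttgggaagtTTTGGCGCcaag
Mcm6, chr1:128359656-128359955, minus strand: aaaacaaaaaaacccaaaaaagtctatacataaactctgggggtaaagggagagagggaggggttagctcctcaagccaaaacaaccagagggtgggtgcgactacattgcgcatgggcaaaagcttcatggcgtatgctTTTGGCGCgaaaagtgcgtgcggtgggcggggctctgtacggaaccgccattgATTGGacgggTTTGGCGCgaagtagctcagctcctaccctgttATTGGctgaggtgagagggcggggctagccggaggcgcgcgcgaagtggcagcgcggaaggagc
Rfc4 held TTCCCGCC 11 bases into the transcript, while Rrm2 and the window of Pold2 shown held CCAAT letters and none of E2F. The other Pold2 window held no CCAAT and no E2F letters, and TTTGAA at 2 places. Rfc5, whose mean change over the 4 midpoints was the smallest fall, held no match to any of the 5 motifs. The windows of Lig1, Pola2, Tk1 and Tyms held none either. In Mcm3 a run of 9 letters held both TTTCCCGC and TTCCCGCC, and TTTGGCGC followed close by. Mcm6 held TTTGGCGC at 2 places, both before the start. A match is a description of the letters and not a measured binding site.

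By the end of nilotinib treatment the viability of the 8093 cultures had come back. The pre-B marker mean was 5.87 and 5.83 in the 2 end arrays, against 8.31 to 8.52 at the start. Whether the replication genes stayed low in the same cells was not tested. At this end 35 of the 36 genes were called lower than at the start and 1 was called higher. Of all genes 44.5% were called, 24.9% lower and 19.6% higher. The median change was -1.20 (all genes -0.15), and -1.32 with scaled arrays (all genes -0.17), where the midpoint gave -1.15. Gins1 had the largest fall again. It read 4.81 and 5.69 in the 2 end arrays, and fell by 2.62 ± 0.19 (adjusted p = 5.57e-13). Mcm7, a ring subunit, read 10.90, 10.73 and 10.60 at the start and 8.37 and 9.19 at the end. Its 2 end arrays were far from each other but both below every start array, and it fell by 1.96 ± 0.18 (adjusted p = 1.43e-10). Pole2 fell by 1.82 ± 0.14 (adjusted p = 3.23e-12), with both end arrays, 6.09 and 6.23, within its midpoint range.

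The exception was Rfc2, another clamp loader subunit. It read 9.07, 8.76 and 8.90 at the start, 8.15, 8.53 and 8.05 at the midpoint, and 9.66 and 10.56 at the end. Both end arrays were above all 32 others of the series, and Rfc2 rose by 1.20 ± 0.18 over the start (adjusted p = 1.66e-06). With either end array left out the rise was 0.75 to 1.65 and still called. The other 3 clamp loader subunits went the other way at the same time: Rfc3 fell by 1.11, Rfc4 by 1.46 and Rfc5 by 0.88. One probeset with a single symbol stands for Rfc2, so its rise was seen with that probeset alone.

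**Figure D2:**
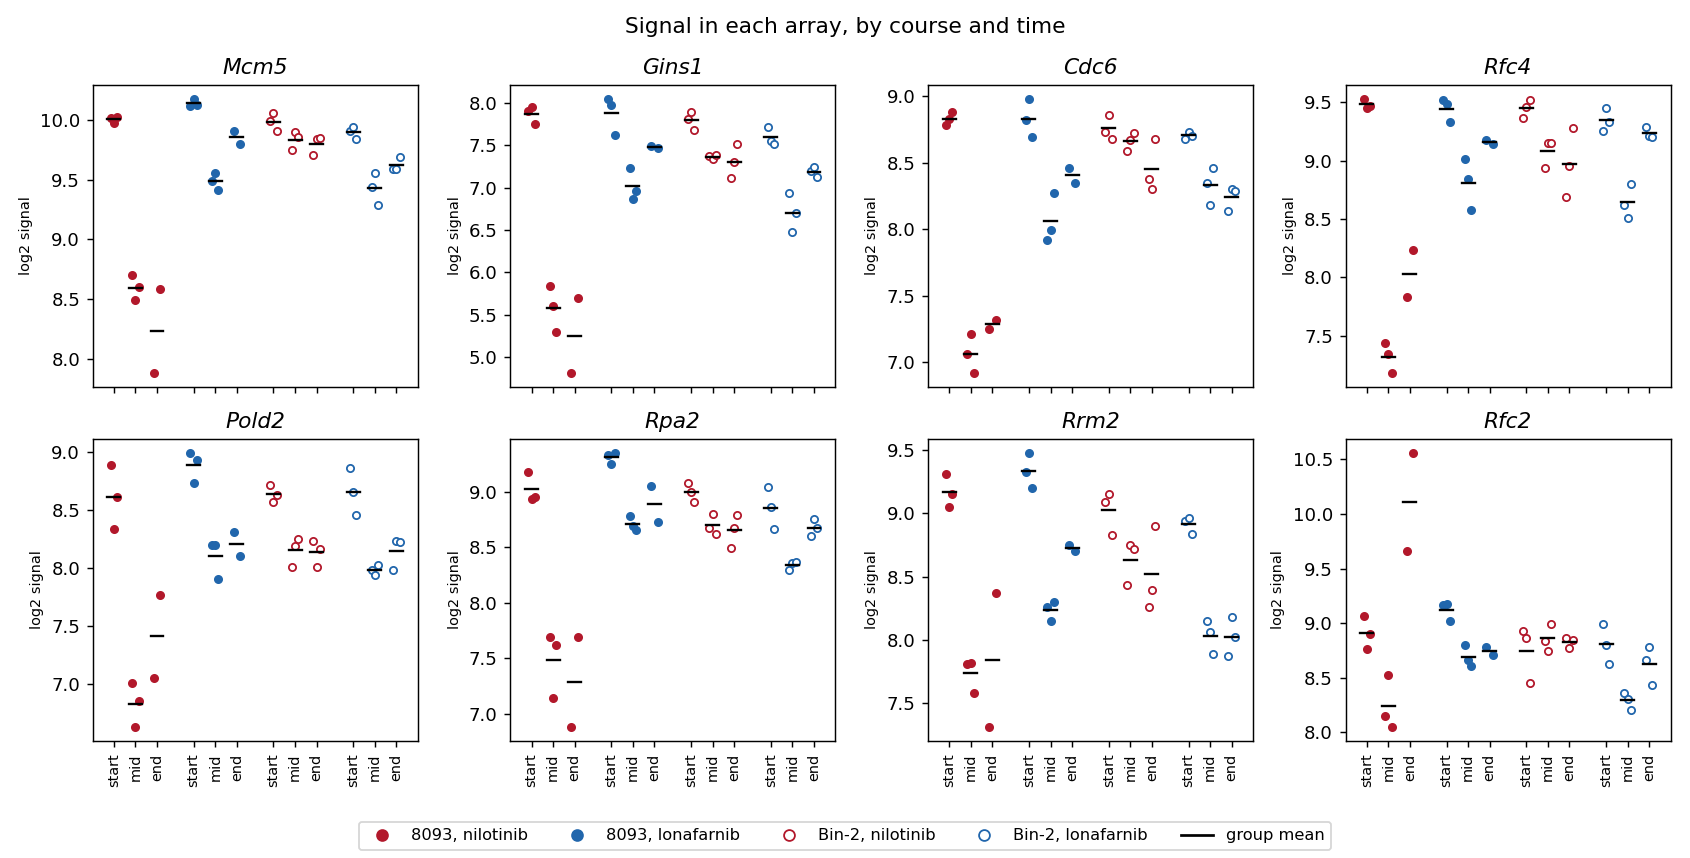
Log2 signal in each array of the gene with the largest mean midpoint change in each of the 7 roles, and of Rfc2; points are arrays, bars are group means, and the 3 times of each of the 4 courses stand side by side. In the 7 role leaders the means of the 8093 nilotinib midpoint and end lie below those of all other groups, while in Rfc2 the 2 end arrays of that course (9.66 and 10.56) lie above all other arrays.

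Between midpoint and end the set split. With the deposited values 9 genes were called higher at the end and 6 lower, where 54.5% of all genes were called (26.7% higher, 27.8% lower), so the share called was below that of all genes. The median was -0.04, against -0.15 for all genes, and with scaled arrays it was -0.21 against 0.02. With arrays scaled to one interquartile range the split turned to 6 higher and 13 lower, and with quantile normalization to 5 and 14. Rfc2 rose by 1.86 ± 0.18 (adjusted p = 7.80e-10) and by 1.44 after scaling. Higher too were Orc6 (0.78), Gins4 (0.73), Rfc4 (0.71), Pold2 (0.58), Tyms (0.57), Gins3 (0.51), Pola1 (0.48) and Cdc45 (0.35).

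Those called lower at the end included ring subunits and a licensing factor. Pold1 read 7.83, 7.69 and 7.93 at the midpoint and 6.38 and 7.06 at the end, well apart, and fell by 1.09 ± 0.16 (adjusted p = 1.36e-06). Cdt1 read 7.62, 7.25 and 7.5 and then 6.65 and 6.53, a fall of 0.87 ± 0.13 (adjusted p = 3.50e-06). These were the genes that had moved least at the midpoint, along with Rfc5. Mcm7 fell by 0.85 ± 0.18, Mcm6 by 0.70 ± 0.16, Rfc5 by 0.48 ± 0.17 and Mcm5 by 0.37 ± 0.13, but these 4 rested on end replicate 1. The 2 end arrays read 8.37 and 9.19 in Mcm7, 8.58 and 9.56 in Mcm6, 7.09 and 7.48 in Rfc5 and 7.88 and 8.58 in Mcm5, where replicate 2 lay within the midpoint range of 8.49 to 8.70. In each of the 4 replicate 1 was the lower. Without that array their changes were -0.44, -0.21, -0.28 and -0.01, with adjusted p of 0.0629, 0.244, 0.278 and 0.937.

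The 2 end arrays differed from each other over the whole set. Replicate 2 was higher than replicate 1 in 34 of the 36 genes, by a median of 0.57, and the set's mean signal was 7.36 in replicate 1 and 7.86 in replicate 2. Without replicate 1, which left 1 end array, the median change of the 36 from the midpoint was 0.18, against -0.04 with both arrays. The summed linear signal of 16 macrophage markers was 21000 in replicate 1 and 8473 in replicate 2, and that of 17 fibroblast markers, the feeder cell type, 4753 and 1414.

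**Figure D3:**
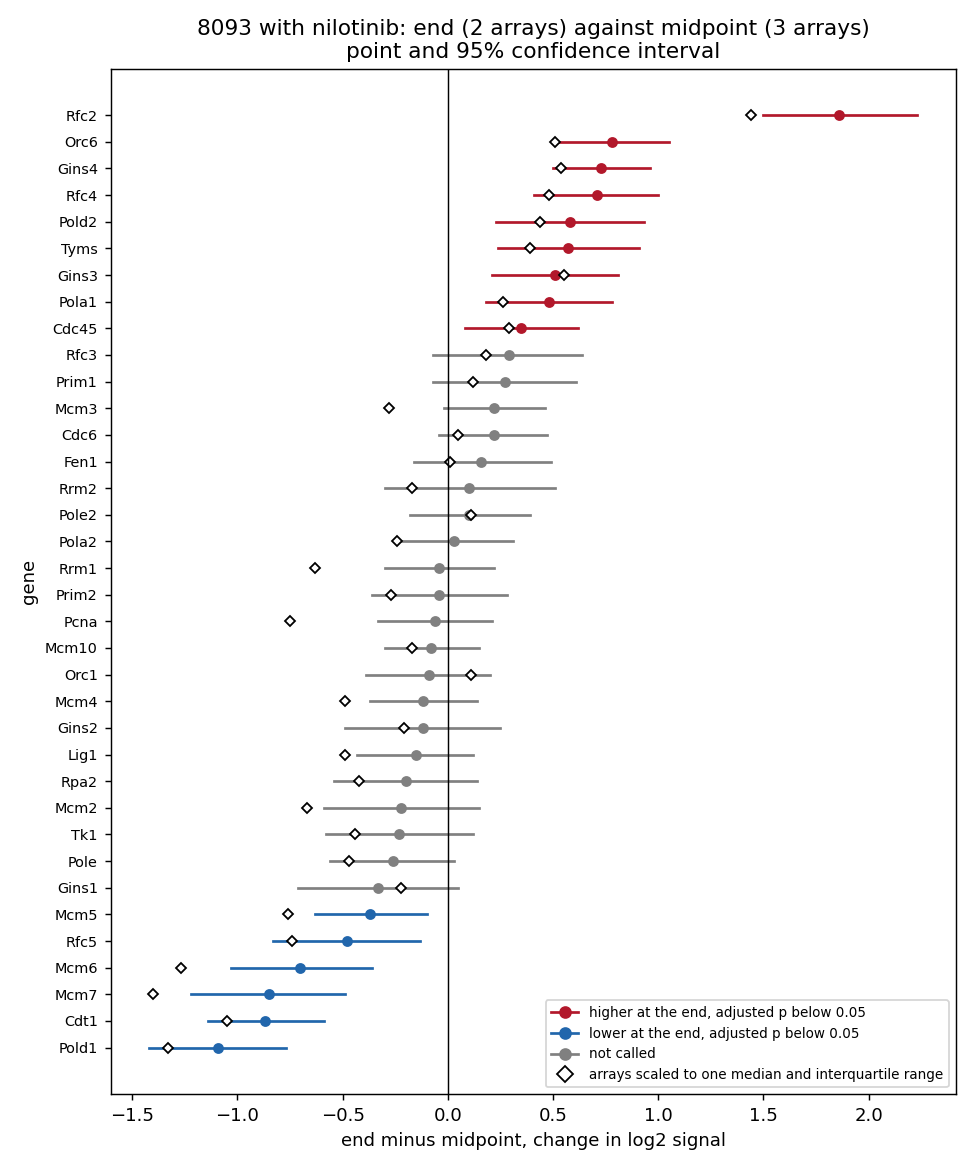
End minus midpoint of 8093 with nilotinib for each of the 36 genes, in log2 units: points with 95% confidence intervals from the fit over all arrays, coloured by call, and diamonds after scaling all arrays to one median and interquartile range. Rfc2 stands apart at 1.86, Pold1 is lowest at -1.09, and most diamonds lie to the left of their points.

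Other cell types' markers moved with both comparisons in this course. At the midpoint 14 of 14 mast cell markers and 14 of 16 macrophage markers were called higher than at the start, as were 12 of 17 fibroblast markers (1 lower). The summed mast cell signal was 2230 to 2259 in the start arrays, 16710 to 26630 at the midpoint and 55970 to 58960 at the end, and the macrophage sum 538 to 594, 11470 to 17880 and 8473 to 21000. The summed pre-B signal was 11740 to 13790, 7626 to 10590 and 2021 to 2821. At the end 13 of 14 mast cell and 15 of 16 macrophage markers were called higher. Their part in the fall of the replication genes was not tested.

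Under lonafarnib the same line gave a smaller fall, with fewer genes called at the end than at the midpoint. At the midpoint 32 of the 36 genes were called lower and 0 higher, where 10.8% of all genes were called, 6.90% lower and 3.89% higher, with a median of -0.61. In 35 of the 36 the midpoint arrays lay below all start arrays. Mcm7 (-0.28), Cdt1 (-0.16), Rfc2 (-0.43) and Pold1 (-0.36) were not called. Rrm2 was lowest, at 8.26, 8.15 and 8.30 after 9.33, 9.48 and 9.20, and was the one gene that fell at least 2-fold (-1.10 ± 0.18, adjusted p = 9.25e-05). Gins1 read 8.05, 7.98 and 7.62 and then 7.23, 6.87 and 6.96, and fell by 0.86 ± 0.17 (adjusted p = 0.000831). Mcm2 read 10.18, 10.08 and 10.19 and then 9.24, 9.43 and 9.26, and fell by 0.84 ± 0.16 (adjusted p = 0.000844). In all 3 of these genes the 2 times were apart.

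By the lonafarnib end 9 of the 36 were called lower than at the start and 0 higher, where 8.71% of all genes were called, 4.31% lower and 4.40% higher, and the median was -0.35 after -0.61 at the midpoint (-0.41 after -0.59 with scaled arrays). All 9 had been called at the midpoint. They were Mcm2 (-0.74 ± 0.18, adjusted p = 0.00819), Pold2, the second subunit of polymerase delta (-0.68 ± 0.17, adjusted p = 0.00965), Rfc5 (-0.64 ± 0.17, adjusted p = 0.0166), Rfc3, Tk1, Mcm4, Orc1, Lig1 and Cdc6. The 2 end arrays of Mcm2, 9.65 and 9.17, lay on either side of its midpoint mean of 9.31 and under all start arrays. Pold2 read 8.31 and 8.10 against 8.73 to 8.99 at the start, and Rfc5 read 7.91 and 7.85 against 8.32 to 8.61. The count rested on single arrays: it was 0 without end replicate 2, 4 without end replicate 1 or start replicate 1, and 5 without start replicate 3.

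Against the lonafarnib midpoint, 6 genes rose and 0 fell by the end, where 6.26% of all genes were called, 3.95% higher and 2.31% lower. Pola2, a subunit of polymerase alpha, went from 8.42, 8.47 and 8.37 to 9.35 and 9.10 (0.80 ± 0.14, adjusted p = 0.00024), so that both end arrays exceeded its start arrays, which reached 9.03. Prim1, the catalytic subunit of primase, went from 8.08, 8.0 and 8.06 to 8.80 and 8.77 (0.73 ± 0.17, adjusted p = 0.00532). Gins3 went from 6.69, 6.25 and 6.76 to 7.37 and 7.15 (0.69 ± 0.15, adjusted p = 0.0028). Fen1, Mcm3 and Orc6 completed the 6. The count was 2 without end replicate 1 and 3 without end replicate 2. Markers moved less here than under nilotinib: 10 of 14 mast cell and 8 of 16 macrophage markers were called higher at the midpoint, with mast cell sums of 3078 to 5484 against 2365 to 2429, and 5 and 2 at the end.

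Bin-2 under nilotinib barely moved the set, although its viability at the midpoint was as low as that of 8093. At the midpoint 1 of the 36 genes was called lower and 0 higher, where 3.47% of all genes were called, 1.60% lower and 1.87% higher. At an unadjusted p below 0.05 in limma there were 10 of the 36, against 3017 of all 19938 genes. The median of the 36 was -0.17, and the 95% confidence intervals of the 36 changes ran from -0.80 to 0.44. Falls of the 8093 size in Gins1, Rfc4 or Pole2 thus lay outside these intervals. The called gene was Mcm10, at 8.22, 8.22 and 8.03 and then 7.70, 7.84 and 7.82 (-0.37 ± 0.10, adjusted p = 0.0311). It missed the threshold after quantile normalization (0.0678), after scaling (0.0826) and when start replicate 1 or 2 or any midpoint array was left out (0.0502 to 0.18). Rfc2 read 8.84, 8.75 and 8.99, inside or just above its start arrays.

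At the Bin-2 nilotinib end 5 genes were called lower and 0 higher, where 8.89% of all genes were called, 3.94% lower and 4.95% higher, with a median of -0.20. Rfc4 read 9.36, 9.46 and 9.52 at the start and 8.69, 8.95 and 9.28 at the end, a spread-out group whose highest array still lay under the start (-0.48 ± 0.13, adjusted p = 0.0155). Pold2 read 8.71, 8.57 and 8.63 and then 8.23, 8.01 and 8.16 (-0.51 ± 0.15, adjusted p = 0.0314). Pole2 read 7.90, 7.98 and 8.02 and then 7.56, 7.23 and 7.77 (-0.45 ± 0.13, adjusted p = 0.0203). The other 2 were Gins4 and Mcm10, each at -0.35. Left-out arrays moved the count from 0 (start replicate 2, end replicate 1 or end replicate 2) over 2 (start replicate 1 or 3) to 8 (end replicate 3).

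From midpoint to end 0 of the 36 were called in Bin-2 with nilotinib, where 1.41% of all genes were (0.998% higher). At an unadjusted p below 0.05 in limma there were 0 of the 36, against 2046 of all 19938 genes. Every alternative that was run also called 0 of the 36, and the 95% confidence intervals of their changes ran from -0.48 to 0.47. Marker genes of other cells also rose in this course. At the midpoint 14 of 16 macrophage markers were called higher, with sums of 5285 to 12350 against 929 to 1253, and at the end 16 of 16, with sums of 8468 to 19170. Of 14 mast cell markers 11 were called higher and 1 lower at the end, with sums of 7456 to 8809 against 3640 to 3714. At the end macrophage sums were about as high as in 8093, while the mast cell and pre-B sums differed. Mast cell sums were 55970 to 58960 in 8093, and pre-B sums were 10390 to 11930 here and 2021 to 2821 there. The median change of the replication genes was -0.20 here and -1.20 there. The part of other cells in either value was not tested.

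**Figure D4:**
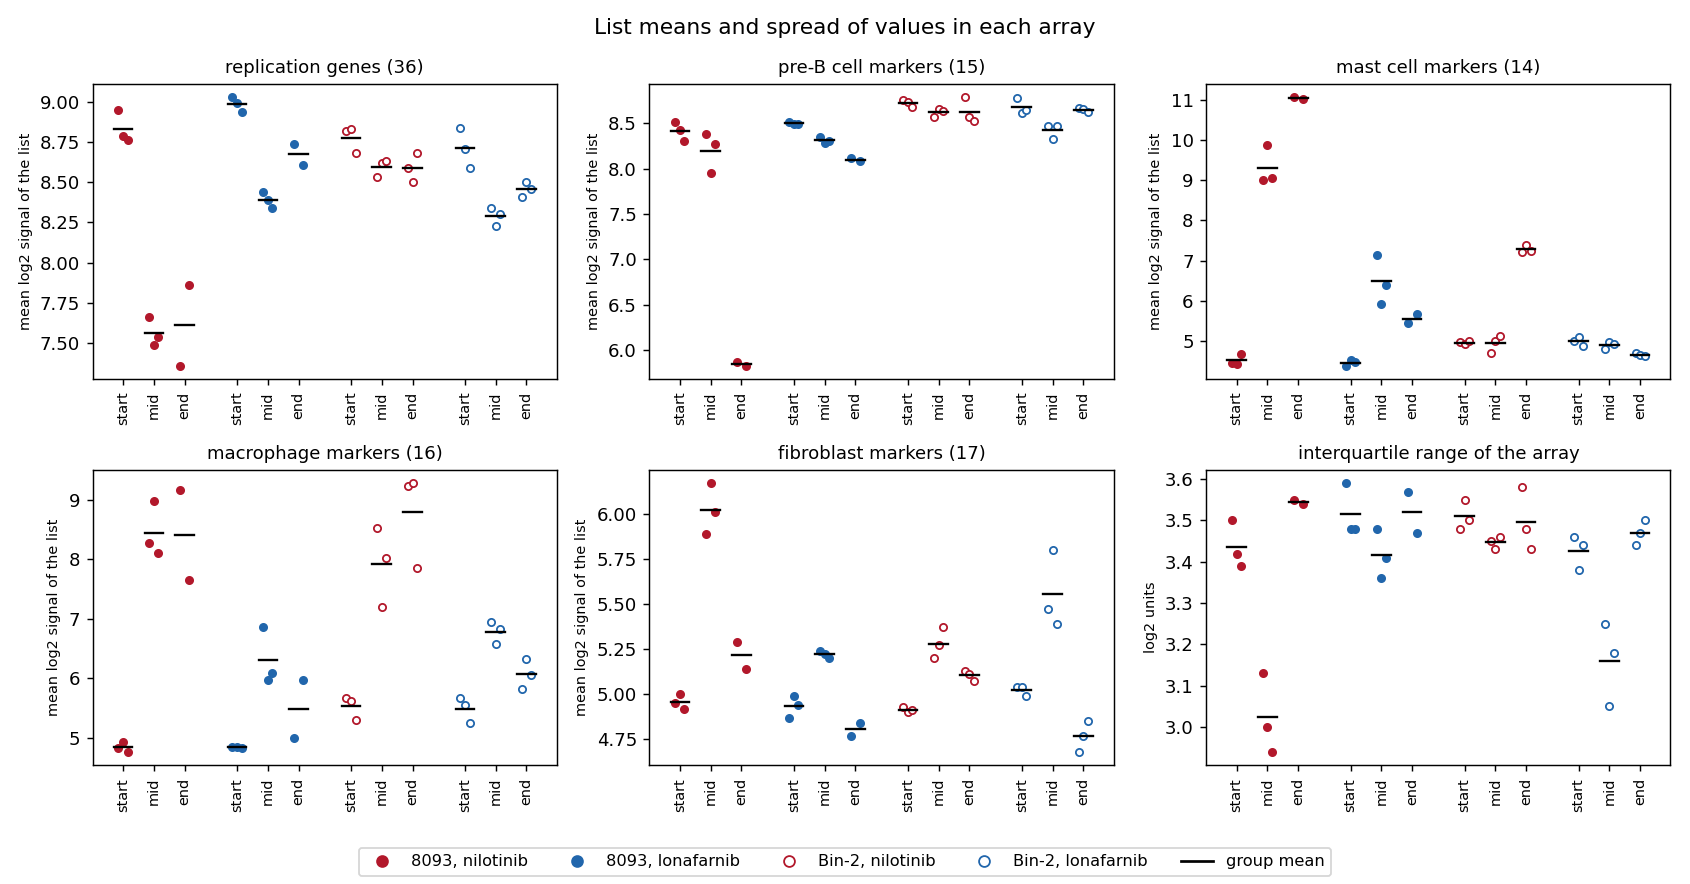
Mean log2 signal in each array of the 36 replication genes and of pre-B, mast cell, macrophage and fibroblast marker lists. The last panel shows the interquartile range of all probeset values of the array. Points are arrays and bars are group means. The replication mean is lowest at the 8093 nilotinib midpoint and end, the macrophage mean is high there and also at both later times of Bin-2 with nilotinib, and the interquartile range is lowest at 2 midpoints.

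More of the set passed the test in Bin-2 under lonafarnib, though the difference between the drugs was itself not called in any of the 36 at this time. At the lonafarnib midpoint 22 of the 36 genes were called lower and 0 higher, where 16.5% of all genes were called, 12% lower and 4.45% higher, with a median of -0.43. Gins1 read 7.72, 7.55 and 7.51 at the start and 6.94, 6.47 and 6.70 at the midpoint (-0.89 ± 0.17, adjusted p = 0.000618). Rrm2 read 8.94, 8.96 and 8.84 and then 8.15, 8.06 and 7.89 (-0.88 ± 0.18, adjusted p = 0.00109). Pole2 read 7.69, 7.89 and 7.73 and then 7.0, 6.93 and 7.15 (-0.74 ± 0.13, adjusted p = 0.000225). These 3 were well apart between times. Rrm1 (-0.08 ± 0.11), Mcm2 (-0.24) and Mcm7 (-0.33) were among the 14 not called.

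Of the 22 genes, 21 were also called lower at the lonafarnib midpoint of 8093, where 32 were called; Rfc2 was the other. The count in Bin-2 fell to 10 with quantile normalization (median -0.29) and to 10 with scaled arrays (median -0.17), and this is one of the 2 groups with compressed arrays. It was 12 without start replicate 1, 14 without start replicate 2 and 13 without midpoint replicate 2. Macrophage markers were called higher here in 8 of 16, with sums of 3398 to 4351 against 859 to 1242, fibroblast markers in 8 of 17, and mast cell markers in 0 of 14 (2 lower); pre-B markers were lower in 6 of 15.

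At the Bin-2 lonafarnib end 8 genes were called lower than at the start and 0 higher, where 8.07% of all genes were called, 3.41% lower and 4.66% higher, with a median of -0.22. Rrm2 stayed at its midpoint level, at 7.87, 8.18 and 8.02, and was lower than at the start by a wide gap (-0.89 ± 0.18, adjusted p = 0.000804). Mcm2 read 9.94, 9.53 and 9.38 and then 8.91, 9.13 and 9.11 (-0.57 ± 0.16, adjusted p = 0.025). Pold2 read 8.86, 8.65 and 8.45 and then 7.98, 8.23 and 8.22 (-0.51 ± 0.15, adjusted p = 0.0305). Mcm4, Cdc6, Lig1, Cdt1 and Mcm3 were the others, and Mcm2, Cdt1 and Lig1 had not been called at the midpoint. The count was 2 without start replicate 1, 5 without start replicate 2 or end replicate 2, and 4 without end replicate 1 or 3.

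From midpoint to end of that course 8 genes were called higher and 0 lower, where 29.7% of all genes were called (19.8% higher, 9.97% lower), so the set's share was under that of all genes. Scaled arrays gave 2 higher and 6 lower, and quantile normalization 4 and 3, so no direction of the set held across scalings. The set's median was 0.12 as deposited and -0.15 with scaled arrays, against 0 and 0.03 for all genes. Prim1 read 8.0, 7.71 and 8.06 at the midpoint and 8.82, 8.60 and 8.57 at the end (0.74 ± 0.15, adjusted p = 0.000365), back at its start level of 8.58 to 8.61. Rfc4 went from 8.62, 8.51 and 8.80 to 9.29, 9.21 and 9.20 (0.59 ± 0.13, adjusted p = 0.000854). Gins4, a GINS subunit, went from 7.82, 7.78 and 7.68 to 8.23, 8.29 and 8.45 (0.57 ± 0.10, adjusted p = 8.62e-05). In these 3 genes the midpoint and end arrays were apart, and Rfc3, Cdc45, Orc6, Gins1 and Pole2 rose by 0.41 to 0.53. Rrm2 did not join them (-0.01 ± 0.18).

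**Figure D5:**
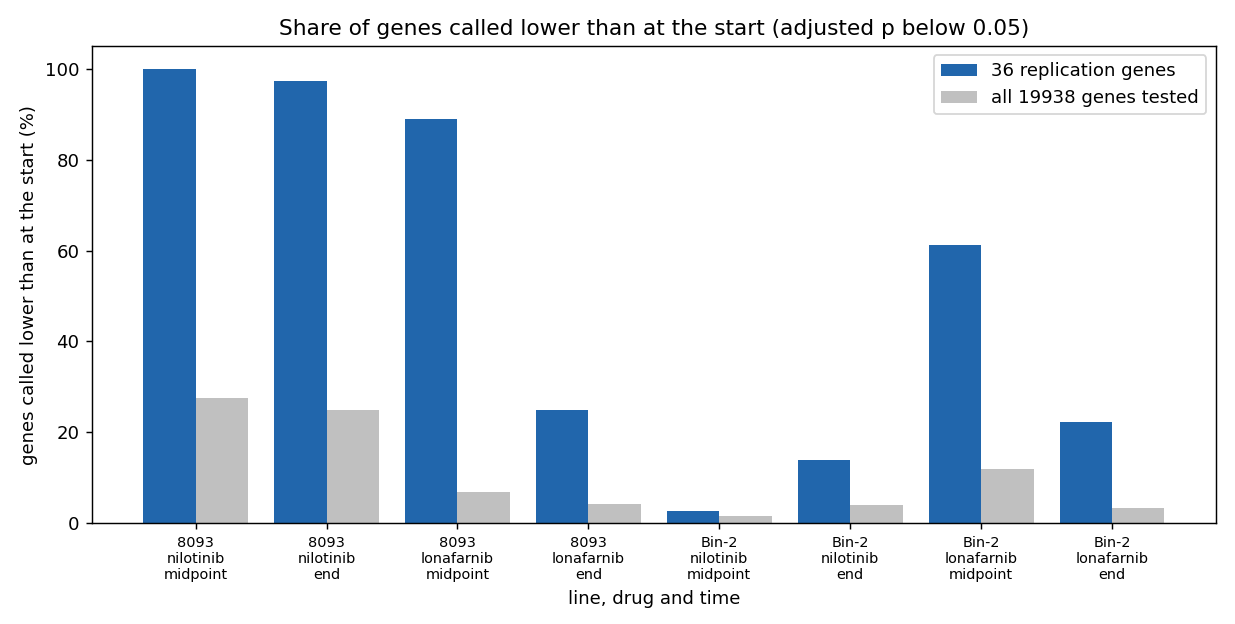
Percentage of the 36 replication genes (blue) and of all 19938 genes tested (grey) called lower than at the start, for each line, drug and time; an adjusted p below 0.05 in limma is a call. At the 8093 nilotinib midpoint all 36 were called against 27.5% of all genes, and at the Bin-2 nilotinib midpoint 1 of 36 against 1.60%.

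Pold2 was the only one of the 36 called lower at the end of all 4 courses. Cdc6, Lig1, Mcm2 and Mcm4 were called lower at 3 of the 4 ends, in each case all but that of Bin-2 with nilotinib. Except in 8093 with nilotinib, such calls rested on single arrays. Counts over all genes also fell when single arrays were left out. At the 8093 lonafarnib end 1737 became 1080 without start replicate 3. At the Bin-2 nilotinib end 1772 became 1120 without end replicate 1. With certain single arrays left out, 0 of the 36 were called at the 8093 lonafarnib end and at the Bin-2 nilotinib end. The call of Pold2 was thus lost at both. At the Bin-2 lonafarnib end the count fell to as few as 2. In Cdc6 the end arrays read 7.25 and 7.32 in 8093 with nilotinib, 8.46 and 8.35 in 8093 with lonafarnib, 8.38, 8.30 and 8.68 in Bin-2 with nilotinib and 8.14, 8.30 and 8.29 in Bin-2 with lonafarnib. The start arrays of all 4 courses lay between 8.68 and 8.98, so each end group was below them or just reached them.

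Whether the drugs or lines differed was tested on the changes themselves. In 8093 the nilotinib change was below the lonafarnib change in 23 of the 36 genes at the midpoint and above it in 0, where 26.8% of all genes were called. Rfc4 led with a difference of -1.53 ± 0.18 (adjusted p = 5.91e-07). At the end 30 were lower under nilotinib and 1, Rfc2, was higher (1.58 ± 0.26, adjusted p = 1e-05), where 33.2% of all genes were called; Gins1 led with -2.22 ± 0.26 (adjusted p = 5.54e-08). The days of these groups differed, and at the midpoint the viabilities did too. At the end the pre-B marker mean was 5.83 and 5.87 under nilotinib and 8.08 and 8.12 under lonafarnib. The part of cell make-up in the drug differences was not tested. In Bin-2 the 2 drugs did not differ in any of the 36 at the midpoint, where 1.48% of all genes were called. There 5 of the 36 had an unadjusted p below 0.05 in limma, against 2903 of all 19938 genes. The 95% confidence intervals of the 36 differences ran from -0.59 to 1.09. At the Bin-2 end 1 differed, Mcm4, which was lower under lonafarnib (0.52 ± 0.16, adjusted p = 0.0363), where 9.51% of all genes were called. Leaving out single arrays gave 0 to 3 there: 0 without nilotinib start replicate 3, nilotinib end replicate 1 or lonafarnib end replicate 1 or 3, 2 without lonafarnib start replicate 3 and 3 without nilotinib end replicate 3.

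Between lines, the nilotinib response differed in nearly the whole set. At the midpoint the Bin-2 change was above the 8093 change in 34 of the 36 and below it in 0, where 26.0% of all genes were called; Gins1 led with 1.86 ± 0.24 (adjusted p = 9.24e-07). The median over all genes of this difference was 0.01, and 0.15 with scaled arrays, against 1.03 and 0.94 for the 36. Rfc5 (0.42 ± 0.22) and Pold1 (0.35 ± 0.20) were the 2 not called. At the end it was 34 above and 1 below, Rfc2 (-1.13 ± 0.24, adjusted p = 0.000463), where 30.6% of all genes were called; Gins1 led again with 2.13 ± 0.25 (adjusted p = 4.84e-08). Under lonafarnib 0 of the 36 differed between lines at the midpoint and 0 at the end, where 4.20% and 4.61% of all genes were called. An unadjusted p below 0.05 in limma was reached by 5 and 1 of the 36, against 3399 and 3191 of all 19938 genes. The 95% confidence intervals of the 36 differences ran from -0.55 to 1.06 and from -0.82 to 0.88. The lines received different doses of both drugs, so line and dose cannot be told apart. The nilotinib ends of the lines also differed in cell markers. The pre-B marker mean was 5.83 and 5.87 in 8093 and 8.53 to 8.79 in Bin-2. The mast cell marker mean was 11.02 and 11.07 in 8093 and 7.22 to 7.39 in Bin-2. The part of cell make-up in the line differences was not tested. The comparisons of drugs and of lines share arrays with each other and with the changes above.

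Before drug the set was close between courses and slightly lower in Bin-2. The lonafarnib and nilotinib starts differed in 0 of the 36 in either line, and 0 of all genes were called (0%) in both. In 8093 an unadjusted p below 0.05 in limma was reached by 6 of the 36, against 2350 of all 19938 genes. In Bin-2 it was reached by 1 of the 36, against 1085 of all genes. Between lines, with both starts of each line together, 10 genes were called lower in Bin-2 and 0 higher, where 20.1% of all genes were called and 10.6% lower. The 10 were Tk1, Gins2, Rfc3, Orc1, Pold1, Lig1, Rrm1, Mcm4, Gins4 and Mcm10. Tk1 read 8.92, 8.46, 8.52, 9.02, 8.89 and 8.90 in 8093 and 8.53, 8.36, 8.28, 8.61, 8.20 and 8.08 in Bin-2. Those groups overlapped, and the difference was -0.44 ± 0.11 (adjusted p = 0.00278), far under the falls seen in 8093 with nilotinib.

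Across the 34 arrays the 36 genes ran closely together, as a description only, since the arrays share groups. The median correlation over 630 gene pairs was 0.84, and 619 pairs were above 0. After each group's mean was taken out the median was 0.44 and 555 pairs were above 0, so arrays of one group also differed in the same direction across the set. Gins1 followed the mean of the other genes most closely (r = 0.98), then Cdc45, Mcm5, Pole2 and Rpa2 (each 0.97). Rfc2 did not follow it over all arrays (r = 0.05) but did so within groups (r = 0.69). Mcm3 was the opposite case, with 0.80 over all arrays and -0.33 within groups. The set's mean varied most within the 8093 nilotinib end (standard deviation 0.355, and at most 0.125 in any other group). How far those 2 arrays set the within-group correlations was not tested. The 2 probesets of Pcna differed little, with -0.87 and -0.84 at the 8093 nilotinib midpoint. Those of Tk1 differed more: the second gave -0.95 against -1.18 there, -0.51 against -0.80 at the 8093 lonafarnib midpoint, -0.20 against -0.49 at the Bin-2 lonafarnib midpoint and 0.05 against -0.26 at the Bin-2 nilotinib end.

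The rest of the replication pathway was followed in 50 further measured genes. At the 8093 nilotinib midpoint 47 were called lower and 1 higher, with a median of -1.02, where 27.5% of all genes were lower and 22.6% higher. CTP synthase (Ctps) fell by 2.32, the fork protection factor Tipin by 1.85 and the dUTPase Dut by 1.78, while Samhd1, which breaks deoxynucleotides down, rose by 0.58. At the end of that course 38 were lower and 5 higher, where 24.9% and 19.6% of all genes were. Shmt1, a folate enzyme that feeds thymidylate synthesis, fell by 3.20, from a mean of 8.67 to 5.47, and Uhrf1, which carries DNA methylation through replication, by 2.66. The 5 that rose were Samhd1 and the mitochondrial thymidine kinase Tk2 (both 1.29), the mitochondrial deoxyguanosine kinase Dguok (1.01), Pold4 (0.59) and Orc4 (0.43). In 8093 with lonafarnib 26 were lower and 0 higher at the midpoint (all genes 6.90% and 3.89%), and 10 and 1 at the end (4.31% and 4.40%). In Bin-2 with nilotinib 1 was lower and 1 higher at the midpoint (1.60% and 1.87%), and 4 and 1 at the end (3.94% and 4.95%), shares near those of all genes. In Bin-2 with lonafarnib 22 were lower and 0 higher at the midpoint (12% and 4.45%), and 6 and 2 at the end (3.41% and 4.66%). Dctpp1, which clears deoxycytidine triphosphate, fell by 0.90 and 0.80 at the 2 lonafarnib times of 8093. Samhd1 was the 1 that rose at both nilotinib times of Bin-2 (0.69 and 0.80). At the Bin-2 lonafarnib end Shmt1 fell by 1.16 and Rpa1, the large partner of Rpa2, by 1.14, while Rpa2 itself was not called (-0.18).

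Among 26 genes of the control of S phase entry, 16 were called lower and 5 higher at the 8093 nilotinib midpoint, and 14 and 4 at the end, where 27.5% and 24.9% of all genes were lower. Cyclin E2 (Ccne2), a partner of Cdk2, fell by 1.98 and E2f5 by 1.51 at the midpoint, and the phosphatase Cdc25a by 1.58 at the end. The genes called higher were no larger a share than among all genes (22.6% at the midpoint, 19.6% at the end). They included Cdkn1b (0.62 at the midpoint and 0.61 at the end), and Cdkn1c (0.62) and E2f2 (0.60) at the midpoint. Of the E2F-binding pocket proteins, Rb1 rose by 1.25 at the midpoint and by 3.30 at the end, from a mean of 7.12 to 10.42. Rbl2 was not called at the midpoint (0.34) and rose by 2.04 at the end, while Rbl1 fell by 0.72 at the midpoint and was not called at the end (-0.15). Cyclin D1 (Ccnd1) rose by 1.54 and 1.07, and by 0.79 and 1.92 under lonafarnib in the same line. The rises of Ccnd1, Rb1 and Rbl2 were not confined to that line and drug. At the Bin-2 nilotinib end Ccnd1 rose by 0.87 and Rb1 by 0.63. At the 8093 lonafarnib end Rb1 rose by 0.83 and Rbl2 by 0.57. In Bin-2 with lonafarnib 5 were lower and 0 higher at the midpoint, led by Ccne2 (-0.75), where 12% and 4.45% of all genes were. At the end 0 were lower and 4 higher, led by the Cdk inhibitor Cdkn2c (1.51), where 3.41% and 4.66% were. Scaled arrays turned that midpoint count to 2 lower and 5 higher. The median change over all genes there was -0.01 as deposited and -0.04 with scaled arrays.

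Of 25 mitosis genes all were called lower at the 8093 nilotinib midpoint and end, with medians of -1.31 and -1.09, where 27.5% and 24.9% of all genes were lower. At the lonafarnib midpoint and end of that line 18 and 5 were lower (all genes 6.90% and 4.31%). In Bin-2 with nilotinib it was 2 at the midpoint and 1 at the end (1.60% and 3.94%), and with lonafarnib 1 at the end (3.41%), the kinase Aurkb (-0.96). At the Bin-2 lonafarnib midpoint, where 22 of the 36 replication genes were called lower, 0 of the 25 were lower and 1, Cenpf, rose (0.47), with a median of 0.03, where 12% of all genes were lower and 4.45% higher. Scaled arrays gave 10 of 36 replication genes lower and 7 of 25 mitosis genes higher, with medians of -0.17 and 0.26. The difference between the lists themselves was not tested.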

How the data were processed

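The values are log2 probeset signals from Affymetrix Mouse Gene 1.0 ST arrays as deposited by the authors. Partek was used, per the submitters' processing notes; the background correction and normalization method is not given in the sources used here. Of 35557 probesets, 21789 had a single gene symbol, and the one with the highest mean stood for each of 19938 genes. A linear model with 12 groups was fitted to all 34 arrays with limma 3.58.1 in R 4.3.3 (lmFit, eBayes, 22 residual degrees of freedom), and p-values were adjusted by Benjamini-Hochberg within each of 23 comparisons. The test was tested on simulated data. Replicates are separate plates of 1 line, so p-values measure only the spread between plates.

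The members and all gene lists were chosen with earlier results of these data known. Each member was counted in each comparison; values by array are given for the 3 called members with the largest change in each time comparison, for members called against the majority, and for the leader of each role, and in other comparisons for the called member with the largest change. Other genes were picked from those of largest change, up to 3 a list and comparison, and from those called against the majority of their list. Not all of these are given. Rbl1 and the midpoint value of Rbl2 were added as relatives of Rb1, outside that rule. Alternatives were quantile normalization, scaling to one median and interquartile range over all probesets, a trended prior, and leaving out dim genes. Array weights, the mean of all probesets of a gene and the replicate number as a block were also used. Further fits left out each array, or used only the arrays of the groups compared, called own arrays below.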

Additional observations from a re-analysis of the deposited data

Results flagged for a closer look

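At least 1 of the 36 genes was called in 5 of 8 comparisons of the changes between drugs or lines. The test was an interaction contrast in limma with Benjamini-Hochberg adjustment. In 8093 the nilotinib and lonafarnib changes differed in 23 of the 36 genes at the midpoint (26.8% of all genes) and in 31 at the end (33.2%). In Bin-2 they differed in 1 gene, Mcm4, at the end, a smaller share than the 9.51% of all genes. That count was 0 with some single arrays left out. Between the lines the nilotinib changes differed in 34 genes at the midpoint (26.0% of all genes) and in 35 at the end (30.6%). The lines had different doses, and the ends fell on different days. The 8093 nilotinib end also stood apart in its cell markers, as given above.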

How the results depend on the processing

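None of the 42 named gene results reversed under any alternative that was run; under planned settings 320 of the values kept their call and 16 lost it, and with single arrays left out 222 kept it and 46 lost it. The balance of higher and lower genes did turn with scaling between midpoint and end, as given above for 8093 with nilotinib and Bin-2 with lonafarnib. For the counts below the cause was not tested. At the Bin-2 nilotinib midpoint, where 1 of the 36 was called, the count was 0 with quantile normalization or scaled arrays and 5 with array weights. There it was also 3 with a trended prior or without dim genes, and 2 with own arrays. At the Bin-2 nilotinib end, where 5 were called, it was 3 with quantile normalization, 13 with weights and 1 with own arrays. At the Bin-2 lonafarnib midpoint it was 10 with quantile normalization or scaled arrays and 11 with own arrays. Own arrays also gave 9 for 8093 with nilotinib between midpoint and end, 3 for 8093 with lonafarnib between these, and 3 at the Bin-2 lonafarnib end. Weights gave 15 at the 8093 lonafarnib end, 2 between the 8093 starts and 17 between lines at the start. For the drug difference at the Bin-2 end the count was 2 with quantile normalization, a trended prior, weights or without dim genes, and 0 with own arrays. For the line difference at the lonafarnib midpoint it was 4 with scaled arrays and 2 with weights.

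With single arrays left out, the counts of the 36 called ranged from 35 to 36 at the 8093 nilotinib midpoint, 35 to 36 at its end and 13 to 19 between these. For 8093 with lonafarnib the ranges were 23 to 30, 0 to 6 and 2 to 6. For Bin-2 with nilotinib they were 0 to 1, 0 to 8 and 0 to 0, and with lonafarnib 12 to 21, 2 to 8 and 6 to 9. The starts gave 0 in both lines, and the lines at the start 8 to 12. Drug differences gave 20 to 24 and 24 to 34 in 8093, and 0 and 0 to 3 in Bin-2. Line differences gave 32 to 34 and 27 to 36 under nilotinib, and 0 at both times under lonafarnib.

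With the replicate number as a block, 36, 36 and 15 of the genes were called in the 8093 nilotinib comparisons and 1, 5 and 0 in those of Bin-2, and no count moved by over 1.5 times. The numbers do not pair the arrays: over 32 same-numbered pairs the correlation of deviations ran from -0.18 to 0.16, with 2 above 0.1.

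Counts over all genes moved by over 1.5 times in these cases. At the Bin-2 lonafarnib midpoint 3287 became 1975 with quantile normalization, 1391 with own arrays and 1930 without midpoint replicate 2. Between the 8093 starts 0 became 17 with a trended prior, 1 without dim genes, 471 with weights, 2 with own arrays and 198 without nilotinib start replicate 1. Weights took 10871 to 7163 in 8093 with nilotinib between midpoint and end, 2150 to 3712 and 1737 to 2611 at the 8093 lonafarnib midpoint and end, and 692 to 1809, 1772 to 3435 and 282 to 1009 in Bin-2 with nilotinib. In the differences of changes weights took 295 to 887 and 1896 to 2895 between drugs in Bin-2, and 838 to 1411 and 920 to 1412 between lines under lonafarnib. Own arrays took 1248 to 733 in 8093 with lonafarnib between midpoint and end, and 282 to 96 in Bin-2 with nilotinib. Single arrays left out took 2150 to as few as 1123, 1737 to 666, 1248 to 600, 838 to 516, 920 to 566, 295 to 153, 692 to 342 and 1772 to 1120, and 282 to between 119 and 582.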
